A study of Homo sapiens with 2 samples.

Results

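NRF2, the transcription factor of the oxidative stress response that is encoded by NFE2L2, was examined together with its inhibitor KEAP1 and 7 antioxidant targets (HMOX1, NQO1, GCLC, GCLM, SLC7A11, SRXN1 and TXN) in the RNA-seq data of Huh7 cells after BRF2 knockdown. These 9 genes were taken by their symbols from the 61541 genes of the deposited table, and all 9 had reads in both libraries. Huh7-NC cells, of the human liver cancer line Huh7, received a control siRNA and Huh7-si cells received an siRNA against BRF2, with no other treatment in the labels and 1 library per condition, made from 2 ug of total RNA. Which of the BRF2 siRNAs was sequenced is not named in the sources used here. With 1 library each, no difference has a replicate check.

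In unstressed cells KEAP1 holds NRF2 in a complex with the ubiquitin ligase scaffold CUL3, and NRF2 is degraded. Oxidants or electrophiles modify cysteines of KEAP1, after which NRF2 accumulates, pairs with a small MAF protein and binds antioxidant response elements. The genes it switches on make glutathione, reduce peroxides and quinones, break down heme and supply NADPH. BRF2, a subunit of the initiation factor of RNA polymerase III, has itself been described as a redox sensor. The level of NRF2 is set mostly by protein stability, which mRNA counts do not show.

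The libraries held 22852648 estimated reads on genes for Huh7-NC and 22089016 in Huh7-si. BRF2 had 1281 and 364 reads, or 56.0 and 16.5 CPM (reads scaled to the library total), a level 70.6% lower in Huh7-si. The 10 hepatocyte and hepatoma markers had between 2813 and 126940 reads in Huh7-NC, and between 2679 and 123538 in Huh7-si, while markers of leukocytes, endothelium and fibroblasts summed to at most 20.6 CPM per list and library. PTPRC, which marks leukocytes, had 5 reads in the Huh7-NC library and 1 in Huh7-si, and DCN and CD3E had 0 reads in both, which allows up to 3. Most of the leukocyte sum came from CD68, at 235 and 244 reads (10.3 and 11.1 CPM). The fibroblast markers summed to 10.3 CPM in Huh7-NC and 20.6 in Huh7-si. Among them COL1A1 stood at 76 and 229 reads and PDGFRB at 158 and 218. The proliferation markers MKI67 and TOP2A summed to 314 and 436 CPM. The part of either in the values below was not tested, and in bulk RNA fewer cells of a type and less RNA per cell cannot be told apart. The reads of a gene were set against the library totals in an exact binomial test (two-sided), whose p is about these 2 libraries, not about the conditions. The brackets give 95% Clopper-Pearson intervals and cover counting error only. A gene was called at a fold change of at least 2 with an unadjusted p under 0.05.

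Of these genes 7 have a promoter (250 bases before to 50 after a RefSeq start site, GRCh38.p14) in the sequence table used, with 9 promoters among them. The core of the antioxidant response element, TGACNNNGC, was searched on both strands. It shares its first letters with the AP-1 motif, so a match can hold both. It was found in the promoter of GCLM and in 1 of the 2 promoters of KEAP1. Of all 35116 promoters of this length 13.3% held it. Positions are counted from the start site, with negative numbers before it. In GCLM the match lies from -34 to -26 on the antisense strand. In KEAP1 the matches lie from -54 to -46 on the sense strand and from -31 to -23 on the antisense strand. The antisense match of both genes has the same letters, TGACTAAGC. The promoter of NQO1 is shown beside them because NQO1 had the lowest log2 fold change of the 9 in CPM, and it holds no match in this window. The capitals mark the matches, which are a description of letters and not of bound sites.
GCLM, chr1:93909381-93909680, minus strand: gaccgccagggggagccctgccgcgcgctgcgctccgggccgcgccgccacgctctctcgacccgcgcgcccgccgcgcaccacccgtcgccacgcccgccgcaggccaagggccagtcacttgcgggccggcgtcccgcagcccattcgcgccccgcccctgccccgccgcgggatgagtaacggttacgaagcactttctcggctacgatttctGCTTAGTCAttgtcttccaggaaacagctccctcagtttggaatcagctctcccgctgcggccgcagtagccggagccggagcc
KEAP1, chr19:10502722-10503021, minus strand: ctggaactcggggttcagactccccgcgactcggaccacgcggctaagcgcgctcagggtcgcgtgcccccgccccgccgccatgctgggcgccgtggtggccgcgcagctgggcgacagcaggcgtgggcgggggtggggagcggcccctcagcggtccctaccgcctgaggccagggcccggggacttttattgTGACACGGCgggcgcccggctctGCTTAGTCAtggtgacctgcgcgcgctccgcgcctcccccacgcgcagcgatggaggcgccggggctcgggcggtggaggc
NQO1, chr16:69726511-69726810, minus strand: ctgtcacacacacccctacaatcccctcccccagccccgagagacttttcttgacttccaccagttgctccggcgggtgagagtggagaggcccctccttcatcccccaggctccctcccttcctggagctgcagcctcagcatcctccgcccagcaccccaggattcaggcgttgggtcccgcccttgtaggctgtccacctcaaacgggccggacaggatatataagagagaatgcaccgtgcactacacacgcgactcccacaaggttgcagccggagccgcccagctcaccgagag

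Across the 9 genes, 7 had a lower and 2 a higher CPM in Huh7-si. None was called higher, where 10.4% of the 26379 genes with reads were called, and none was called lower, where 1.02% were. Over all genes these were 2742 higher and 270 lower calls, and with TMM scaling, which lowers every log2 value by 0.22, they were 1822 and 572, still with no member among them. At a fold change of 1.5, SLC7A11 was higher (background 17.6%) and NQO1 and TXN were lower (background 2.87%). The reads of all 9 differed beyond counting error, with adjusted p values under 0.05 from the exact binomial test (Benjamini-Hochberg over all genes with reads), 2 higher and 7 lower. Over all genes 26.8% were higher and 12.6% lower by that criterion, so at this depth passing it is common. The median log2 fold change was -0.29 for the 9 genes, 0.21 for all genes with at least 10 reads and 0.15 for protein-coding genes. Together the 9 genes took 0.173% of the reads for Huh7-NC and 0.124% for Huh7-si.

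**Figure D1:**
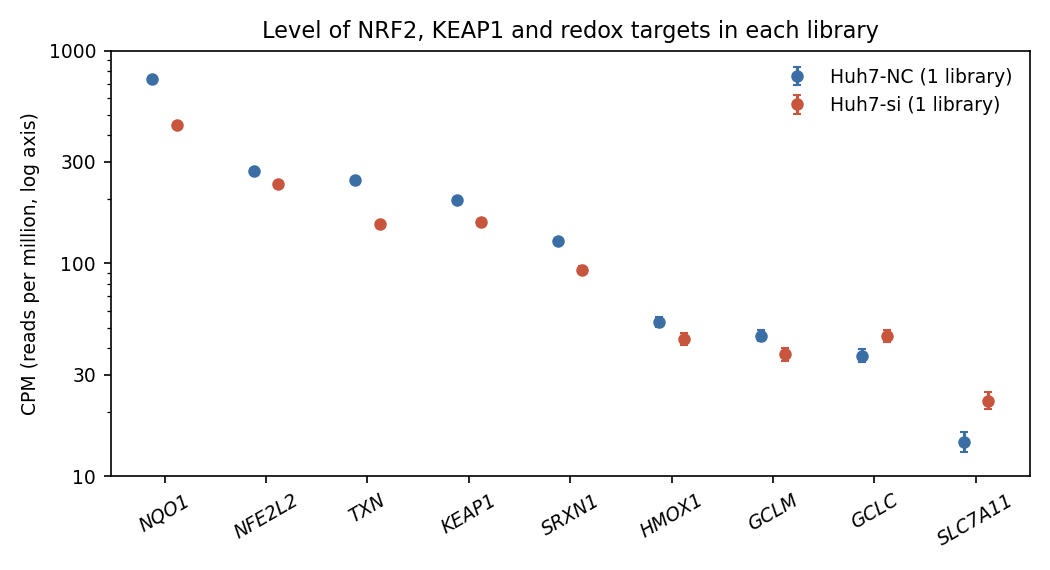
CPM (log axis) of the 9 genes in Huh7-NC and Huh7-si, ordered by the level in Huh7-NC, 1 point per library with 95% exact Poisson intervals that cover counting error only. Points are to be compared within a gene, and 7 genes sit lower in Huh7-si while GCLC and SLC7A11 sit higher.

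The regulators came first. NFE2L2 (ENSG00000116044, chr2:177227595-177392697, minus strand, GRCh38, GENCODE release 29) had 6223 reads in the Huh7-NC library and 5215 in Huh7-si, or 272 and 236 CPM. Its level was 13.3% lower in Huh7-si, with a log2 fold change (log2FC) of -0.21, an interval of -0.26 to -0.15 and p = 2.8e-14 by the exact binomial test. The authors' TPM values, which also correct for transcript length, were 146 and 145, a log2 ratio of -0.01. The TPM columns shift the median gene up by 0.18 on the log2 scale, here and for each TPM value below. The gene AGPS lies on the opposite strand across part of the NFE2L2 locus and had 3075 and 3350 reads. The strandedness of the libraries is not given in the sources used here, so reads where both are transcribed cannot be told apart.

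KEAP1 (ENSG00000079999, chr19:10486120-10503741, minus strand), which recruits NRF2 to the ubiquitin ligase, had 4521 and 3460 reads, or 198 and 157 CPM. The log2FC was -0.34 (-0.40 to -0.27), and by the TPM columns, with 106.5 and 111, it was 0.06, so its direction depended on the scale. The ratio of KEAP1 reads to NFE2L2 reads, which needs no library scaling, was 0.726 in Huh7-NC and 0.663 in Huh7-si, which is a log2 change of -0.13 (-0.21 to -0.05, Wald interval on the counts); by TPM it was 0.07. This ratio and the others between 2 genes below were chosen after the values were seen. Both the factor and its inhibitor were lower in CPM, and neither was past the fold threshold.

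The transcript length behind a TPM value can be read back from reads divided by TPM, scaled to the median gene. For KEAP1, listed at 2648 bases, it was 2733 bases in Huh7-NC and 2397 in Huh7-si, so that the TPM value of Huh7-si rests on a shorter length. For NFE2L2, listed at 2446 bases, it was 2735 and 2765. For NQO1 it was 1438 and 1431 where 2521 are listed, and for GCLC 3590 and 3432 where 2289 are listed. The levels per base of these genes therefore depend on which length is used.

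Glutathione is made from cysteine, which enters as cystine through the transporter SLC7A11, and the limiting step is done by glutamate-cysteine ligase, whose catalytic subunit is GCLC and whose modifier subunit is GCLM. SLC7A11 (ENSG00000151012, chr4:138164097-138242349, minus strand) had 331 reads in the Huh7-NC library and 501 in Huh7-si, or 14.5 and 22.7 CPM. It was the member with the highest log2FC, 0.65, with an interval of 0.44 to 0.85 and p = 1.9e-10 by the exact binomial test. It is also the longest of the 9 at 9645 bases, and in protein-coding genes of at least 8940 bases the median log2FC was 0.70, so SLC7A11 lay slightly below genes of its length (log2 difference -0.05). Its partner in the transporter, SLC3A2, had 5368 and 7163 reads, with a log2FC of 0.47 (0.41 to 0.52), and the ratio of SLC7A11 to SLC3A2 reads was 0.0617 and 0.0699, a log2 change of 0.18 whose interval (-0.02 to 0.39) includes no difference. Against genes of like length this change was -0.49, in the opposite direction.

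GCLC (ENSG00000001084, chr6:53497341-53616970, minus strand) had 842 and 1006 reads, or 36.8 and 45.5 CPM, a log2FC of 0.31 (0.17 to 0.44). GCLM (ENSG00000023909, chr1:93885205-93909456, minus strand) had 1045 and 828 reads, or 45.7 and 37.5 CPM, a log2FC of -0.29 (-0.42 to -0.15). In CPM the subunits of this enzyme therefore differed between the libraries in opposite directions. The ratio of GCLC to GCLM reads was 0.806 in Huh7-NC and 1.21 in Huh7-si, which is a log2 change of 0.59 (0.41 to 0.78) that does not depend on library scaling. By the TPM columns this change was 0.63, and against genes of like length it was 0.91. Relative to genes of like length GCLC lay above (log2 difference 0.28) and GCLM below (-0.64). With the lengths behind the TPM values in place of the listed ones, a choice made after the values were seen, the differences were 0.11 and -0.71. With TMM scaling GCLC stood at 0.08, with an interval of -0.05 to 0.21 that includes no difference, and GCLM at -0.51 (-0.64 to -0.38). By the TPM columns GCLC stood at 0.58 and GCLM at -0.05. The higher level of GCLC and the lower level of GCLM, each taken alone, thus depended on the scale more than their ratio did.

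Thioredoxin reduces disulfides in proteins and is itself reduced by thioredoxin reductase, and sulfiredoxin restores overoxidized peroxiredoxins. TXN (ENSG00000136810, chr9:110243811-110256640, minus strand) had 5638 reads in the Huh7-NC library and 3391 in Huh7-si, or 247 and 154 CPM. Its level was 37.8% lower, with a log2FC of -0.68, an interval of -0.75 to -0.62 and p = 8.0e-109 by the exact binomial test. TXN is the shortest of the 9 at 737 bases, the median of protein-coding genes of at most 853 bases was -0.37, and TXN lay below it by a log2 difference of -0.32. TXNRD1, the cytosolic reductase, had 8517 and 8377 reads, a log2FC of 0.03 (-0.02 to 0.07) that was -0.20 with TMM scaling. The ratio of TXN to TXNRD1 reads was 0.662 in Huh7-NC and 0.405 in Huh7-si, which is a log2 change of -0.71 (-0.78 to -0.63). By TPM it was -0.86, and against genes of like length it shrank to -0.14.

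SRXN1 (ENSG00000271303, chr20:646615-653370, minus strand), which encodes sulfiredoxin, had 2907 and 2058 reads, or 127 and 93.2 CPM, and a log2FC of -0.45 (-0.53 to -0.37). PRDX1, one of the peroxiredoxins it repairs, had 23313 and 13201 reads, with a log2FC of -0.77 (-0.80 to -0.74). The ratio of SRXN1 to PRDX1 reads was 0.125 and 0.156, a log2 change of 0.32 (0.24 to 0.41) that was -0.06 against genes of like length. Whether the SRXN1 mRNA was lower to a lesser degree than that of PRDX1 thus depended on gene length.

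NQO1 (ENSG00000181019, chr16:69706996-69726951, minus strand), which reduces quinones with NADPH or NADH, was the member with the most reads, 16846 for Huh7-NC and 9917 in Huh7-si, or 737 and 449 CPM. It was 39.1% lower, a log2FC of -0.72 (-0.75 to -0.68). This was the lowest value of the 9 in CPM, but its interval overlapped that of TXN. With TMM scaling its log2FC was -0.94. By the TPM columns, with 754 and 534, it was -0.50, and TXN was then lower at -0.53. NQO2, a related quinone reductase, had 925 and 518 reads, with a log2FC of -0.79 (-0.95 to -0.63). The ratio of NQO1 to NQO2 reads was 18.2 and 19.1, a log2 change of 0.07 whose interval (-0.09 to 0.23) includes no difference. By TPM it was 0.20, and against genes of like length it was -0.31, in the opposite direction. That value rests on the listed length of NQO1, by which NQO1 stood at -0.80 against its length group and NQO2 at -0.49. With the length behind its TPM values, a choice made after the values were seen, NQO1 stood at -0.57, nearer to NQO2.

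HMOX1 (ENSG00000100292, chr22:35380361-35394214, plus strand), the inducible heme oxygenase, had 1213 and 976 reads, or 53.1 and 44.2 CPM. The log2FC was -0.26, with an interval of -0.39 to -0.14 and p = 2.1e-05 by the exact binomial test. The constitutive form HMOX2 had 469 and 309 reads, with a log2FC of -0.55 (-0.76 to -0.34). The ratio of HMOX1 to HMOX2 reads was 2.59 and 3.16, a log2 change of 0.29 (0.05 to 0.53). By TPM it was 0.13, and against genes of like length it was 0.37. Of the 9 genes, HMOX1 lay closest to its length group among those that were lower, with a log2 difference of -0.12.

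**Figure D2:**
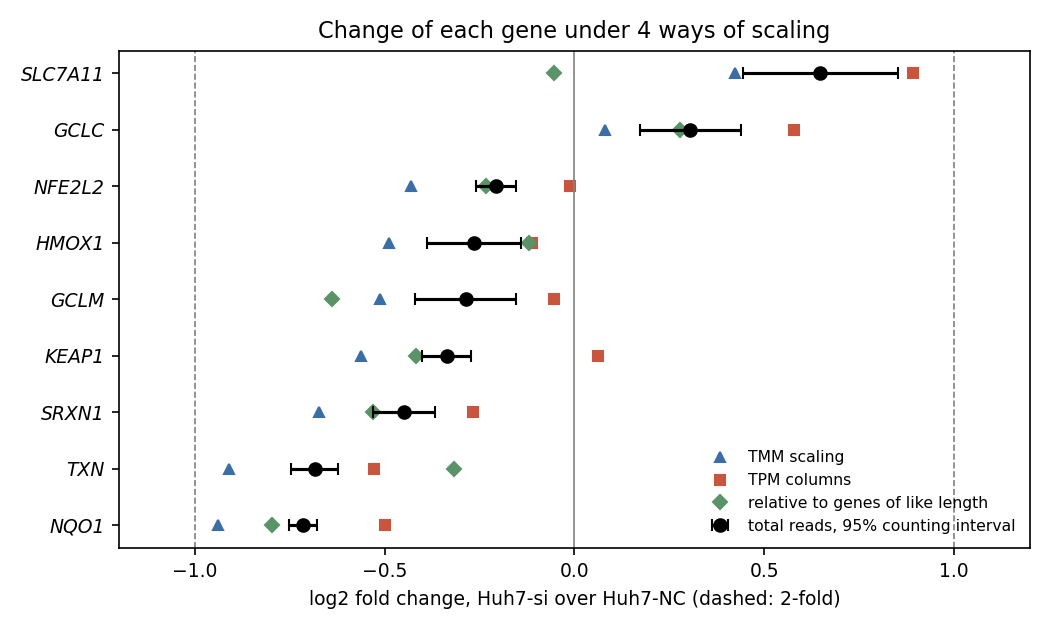
Log2 fold change of the 9 genes, Huh7-si over Huh7-NC, by total reads (black points with 95% counting intervals), TMM scaling, the deposited TPM columns and relative to genes of like length. No point reaches 2-fold, NQO1 and TXN are below 0 on every scale shown, KEAP1 changes sign by TPM and SLC7A11 changes sign against genes of like length.

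Gene length moved with these values. In the 14095 protein-coding genes with at least 10 reads, cut into 20 groups by length, the median log2FC went from -0.37 in the shortest to 0.70 in the longest group. The part of this length dependence in the members' changes was measured only by that subtraction. Against genes of like length 8 of the 9 lay lower, all but GCLC, with a median difference of -0.32. NQO1, KEAP1 and SRXN1 fall in the same group of 704 genes (2512 to 2750 bases), whose median was 0.08. In that group 1.56% of the genes had a lower log2FC than NQO1, 7.67% a lower one than SRXN1 and 13.5% a lower one than KEAP1. In the group of 708 genes (2282 to 2511 bases) that holds NFE2L2 and GCLC, the shares were 24.6% for NFE2L2 and 72.6% for GCLC. The share was 5.24% for GCLM, 11.1% for TXN, 36.6% for HMOX1 and 46.5% for SLC7A11 in their own groups. These shares describe where each gene lies and are not tests. They rest on the listed lengths. With the lengths behind the TPM values, a choice made after the values were seen, the difference of NQO1 shrank from -0.80 to -0.57. GCLM then lay farthest below at -0.71, and SRXN1 stood at -0.57. NFE2L2 was not set apart by its ratio, since 1815 protein-coding genes, or 12.9%, had a log2FC within 0.1 of it.

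**Figure D3:**
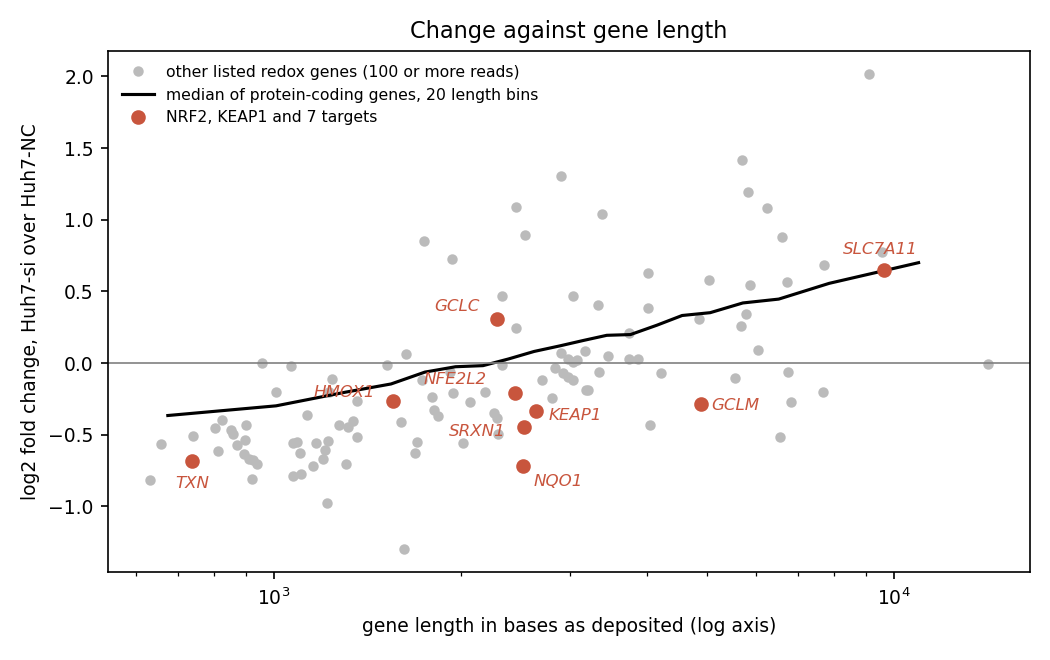
Log2 fold change, Huh7-si over Huh7-NC, against the deposited gene length in bases (log axis) for the 9 genes (red), the other listed redox genes with at least 100 reads (grey), and the median of protein-coding genes in 20 length groups (black line). The line climbs from -0.37 to 0.70, SLC7A11 lies close to it, GCLC lies above it, and NQO1, GCLM and SRXN1 lie farthest below it of the 9.

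By TPM, the order of the 9 genes in level was the same in both libraries. NQO1 was highest with 754 in Huh7-NC and 534 in Huh7-si. TXN followed with 588 and 407, then NFE2L2 with 146 and 145, KEAP1 with 106.5 and 111, SRXN1 with 64.8 and 53.8, HMOX1 with 48.5 and 44.9, GCLC with 15.1 and 22.6, GCLM with 11.95 and 11.5, and SLC7A11 with 1.79 and 3.32. Counting intervals of neighbours in this order did not overlap in either library. By RPKM computed from the listed lengths, TXN (335 and 208) stood above NQO1 (292 and 178), so the order of these 2 depended on the length used, while the other 7 kept their places.

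The other genes of the NRF2 system were taken from 8 lists with 117 genes in all. The partners and regulators of NRF2 were the list in which more genes were higher, 13 of the 18 with at least 10 reads, with a median log2FC of 0.28, which was 0.05 with TMM scaling and -0.02 against genes of like length. Of the 19 listed genes 2 were called higher and none lower, a share close to the 10.4% of all genes called higher. BACH2, a repressor that binds the same DNA elements with small MAF proteins, had 112 and 437 reads, with a log2FC of 2.01 (1.71 to 2.33), which was 1.31 against genes of like length. The small MAF gene MAFK had 950 and 1887 reads, with a log2FC of 1.04 (0.93 to 1.15), which was 0.81 with TMM scaling and 0.85 against genes of like length, both under the 2-fold threshold. A further small MAF gene, MAFG, stood at 0.85 (0.72 to 0.98), from 766 to 1333 reads. BACH1, the repressor of HMOX1, stood at 0.34 and the related factor NFE2L1 at 0.31, and both were below genes of like length, at -0.08 and -0.04. Among the parts of the degradation complex, CUL3 stood at -0.07 (-0.15 to 0.02) and RBX1, the lowest of the list, at -0.56 (-0.67 to -0.44). SQSTM1, the autophagy receptor that binds KEAP1, was at -0.03, and at 0.18 by the TPM columns.

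Of the 21 glutathione genes, 18 were lower and 3 higher, with a median of -0.45. None was called in either direction, beside 10.4% of all genes called higher and 1.02% called lower. With TMM scaling GLRX and GPX2 were called lower, as were 572 of all 26379 genes with reads. GLRX, a glutaredoxin, stood lowest at -0.82 (-1.02 to -0.61), from 560 to 307 reads. GPX2, a glutathione peroxidase, had 3246 and 1789 reads and stood at -0.81 (-0.89 to -0.73). GPX4, which removes lipid peroxides, had 10929 and 7703 reads and stood at -0.46, while genes of its length stood at -0.37. Glutathione reductase (GSR) stood at -0.12, and at 0.08 by the TPM columns. GGT1, a gamma-glutamyltransferase, was the highest at 0.89 (0.64 to 1.15), from 196 to 352 reads, which may be shared with its close copies. This list is made of short genes, with a median length of 1229 bases, and its median difference to genes of like length was -0.24.

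Of the 15 thioredoxin and peroxiredoxin genes, 9 were lower and 6 higher, with a median of -0.21. PRDX1 was the lowest of them. TXNIP, the inhibitor of thioredoxin, was the only gene called, beside 10.4% of all genes with reads called higher and 1.02% called lower. It was higher in Huh7-si with 380 and 906 reads, a log2FC of 1.30 (1.13 to 1.48), 1.08 with TMM scaling and 1.18 above genes of like length. TXN and the gene of its inhibitor thus differed between the libraries in opposite directions.

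The 11 genes of NADPH supply, the electron source of both systems, had a median of -0.27, with 9 lower and none called. Of all genes with reads 10.4% were called higher and 1.02% lower. Malic enzyme ME1 had 1859 and 1724 reads and stood at -0.06 (-0.16 to 0.04), or 0.12 by the TPM columns. TALDO1 of the pentose phosphate pathway was lowest at -0.67 and the mitochondrial transhydrogenase NNT highest at 0.62. Of the 10 iron and heme genes, 7 were lower and none was called, with a median of -0.30. The ferritin chains had the most reads of all genes in these lists, FTL with 183115 and 118996 reads and FTH1 with 126780 and 93153, at -0.57 and -0.40, where genes of like length stood at -0.30 and -0.37. Reads of FTH1 may be shared with its many processed copies. TFRC, the transferrin receptor, was highest at 0.58 and BLVRB, a biliverdin reductase, lowest at -0.71.

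The 25 genes of conjugation, carbonyl reduction and export had 3 genes called higher and 2 called lower, beside 10.4% and 1.02% of all genes. Of the 24 with at least 10 reads 17 were lower, with a median of -0.27. The exporters ABCC3 and ABCC2 were called higher, with 358 and 923 reads, with a log2FC of 1.42 (1.24 to 1.60) for ABCC3, and with 1549 and 3427 reads and 1.19 (1.11 to 1.28) for ABCC2. UGT1A6 was called higher with 53.0 and 109 reads, at 1.09 (0.60 to 1.59); it shares exons with other UGT1A genes, so its reads are uncertain. With TMM scaling ABCC3 alone of these 3 was called. Against genes of like length ABCC3 stood at 0.996, just under the 2-fold threshold, ABCC2 at 0.78, also under it, and UGT1A6 at 1.06. These values rest on the listed lengths, and the lengths behind the TPM values were not tried for these genes, so the side on which ABCC3 falls is uncertain. AKR1B10, an aldo-keto reductase, was called lower with 184 and 72.5 reads, at -1.30 (-1.70 to -0.89), and -1.52 with TMM scaling. The other gene called lower, ALDH3A1, had 37 and 17 reads and stood at 0.20 by the TPM columns; it has too few reads for the rule on named genes and is named because it was called. With TMM scaling these 2 genes were still called lower, and so were GSTA1 and NQO2, which made 4 lower calls. By that scaling 572 of all 26379 genes with reads were called lower and 1822 higher. GSTA1 had 456 and 224 reads and stood at -0.98 (-1.21 to -0.74) in CPM. The estimated counts of GSTA1 and AKR1B10 are fractional, so their reads may be shared with related genes. AKR1C1, which has near-identical copies, had 18108 and 12259 reads and stood at -0.51.

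Of the 6 superoxide and peroxide genes, 5 were lower and none was called, with a median of -0.20. Of all genes with reads 10.4% were called higher and 1.02% lower. SOD1 stood at -0.64 (-0.69 to -0.58), catalase (CAT) at -0.39 (-0.49 to -0.28), and SOD2 at -0.01 (-0.06 to 0.04), or 0.26 by TPM. The 9 remaining targets with reads had a median of -0.06, or 0.41 by the TPM columns. All genes with at least 10 reads stood at 0.21, or 0.39 by the TPM columns. Among them AHR, a xenobiotic receptor that shares targets with NRF2, was called higher with 735 and 1505 reads, at 1.08 (0.95 to 1.21), and stood at 0.86 with TMM scaling and 0.64 against genes of like length, both under the 2-fold threshold. OSGIN1 stood at -0.06 (-0.19 to 0.06), or 0.27 by TPM, and PIR was the lowest at -0.43. NR0B1 had 0 reads in both libraries.

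**Figure D4:**
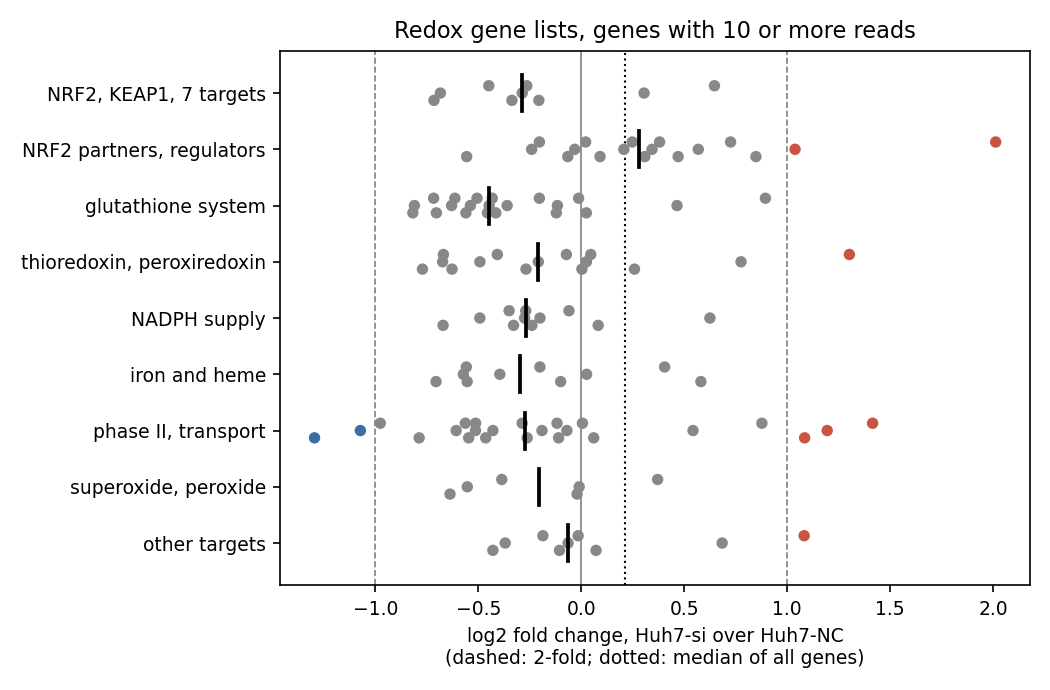
Log2 fold change, Huh7-si over Huh7-NC, of each gene with at least 10 reads in the 9 genes and the 8 other lists. Each point is a gene (red, called higher; blue, called lower; grey, not called), black bars are medians, and the medians of all lists but the NRF2 partners and regulators lie below the dotted median of all genes, 0.21.

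By promoter letters, the 7 members in the table were close to the other lists. The element core was present for 2 of the 7, or 28.6% of these genes, and for 29 of 98 genes of the other lists, or 29.6%. Of all genes with at least 10 reads and a promoter in the table, 19.1% held it. GCLM and KEAP1, which hold it, had log2FCs of -0.29 and -0.34, between those of GCLC and NQO1, which do not hold it in this window.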

How the data were processed

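RNA-seq of Huh7-NC and Huh7-si cells was used, 1 library each. The authors deposited, per gene, an estimated count (not scaled, partly fractional, 22852648 and 22089016 in all) and a TPM value. The submitters' processing notes name Bowtie2 2.0.6, TopHat2 2.0.12 and the build GRCh37, with no roles; the counting tool and strandedness are not given in the sources used here. The deposited fold changes, p-values and calls are the authors' own comparison and were not used. No other per-sample columns were left unused (0).

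Estimated counts were rounded for tests. Fold changes are ratios of CPM, tested by a two-sided exact binomial test (SciPy 1.17.1) with Benjamini-Hochberg adjustment over 26379 genes. The test was checked on simulated reads with counting error only and no length trend. That check cannot show how the test does with spread between replicates or with the length dependence seen here. Length groups used the deposited length. The members and lists were chosen with earlier results of these data known. Genes named are the 9 members, BRF2, a fixed set of partners and targets, and in each list the highest, the lowest and the called genes with at least 100 reads. Outside that rule, HMOX2 and NQO2 are named for their ratios to members, AGPS for its overlap, and NR0B1 for its lack of reads. ALDH3A1 is named for its call, GSTA1 for its call with TMM scaling, and the cell type markers were fixed. Planned protein motifs were not searched, and 1 gene of the fixed set is not reported here. Of the identifiers 94.8% are in GENCODE release 29 (GRCh38), the source of gene types and positions; promoters are from RefSeq, GRCh38.p14. Alternatives were TMM (edgeR 4.0.16), median of ratios (DESeq2 1.42.0), the upper quartile, TPM, pseudocounts, filters, a fold of 1.5, an adjusted p and edgeR's exact test with an assumed coefficient of variation. Python 3.11.15 and R 4.3.3 were used.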

Additional observations from a re-analysis of the deposited data

How the results depend on the processing

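With 1 library per condition no replicate could be left out, and no paired analysis was possible because each condition has 1 library. TMM, median-of-ratios and upper-quartile scaling shift every log2 fold change by -0.22, -0.21 and -0.19, and the TPM columns shift the median gene by 0.18. Of 63 values of the 9 genes under other scalings, pseudocounts and length grouping, 61 kept their direction and their side of the fold threshold. The other 2 changed sign: KEAP1 by TPM (0.061) and SLC7A11 against genes of like length (-0.053). Pseudocounts moved these values little, and the downward shifts could not change the sign of a gene already lower, so many of the 61 had little room to change. Values that kept their direction by a small margin were NFE2L2 by TPM (-0.012) and GCLC with TMM (0.08), whose interval includes no difference. The members' median of -0.29 was -0.51, -0.49 and -0.47 with the 3 scalings and -0.054 by TPM, where all genes with at least 10 reads stood at 0.39. The members called, 0 higher and 0 lower, were 1 and 2 at a fold of 1.5 and 0 under each other alternative for calls. BRF2 kept its call under each scaling and pseudocount tried. An alternative chosen after seeing the data grouped genes by the length implied by TPM, and with it SLC7A11 was again below 0 (-0.053) while the other members kept their direction.

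Over all genes, 2742 were called higher and 270 lower. The counts were 1822 and 572 with TMM, 911 and 43 with a pseudocount of 1 CPM, and 4634 and 756 at a fold of 1.5. A minimum of 10 reads per library left 1424 and 107, a minimum of 1 CPM in either library left 1666 and 128, and a biological variation of 0.4 assumed in the exact test of edgeR left 687 and 76. Those called lower were 542 with median of ratios, 454 with the upper quartile and 164 among genes with a symbol. The minimums and the symbol filter reduce the genes tested by construction. The lower fold threshold can only add calls, and the pseudocount, which draws every ratio toward no change, can only remove them. TMM, median of ratios and the upper quartile lower every log2 value, which moves calls from higher to lower. For the assumed variation the cause was not tested.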
